A study of Arabidopsis thaliana with 12 samples.

Results

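Leaves of the plant Arabidopsis thaliana change their transcripts as they age, and the question here was which genes change differently in the mutant line chlorella-1 than in the wild type Col. All 12 of the 12 libraries of the study entered, 3 in each of 4 groups, which are chlorella-1 at 26 d, chlorella-1 at 14 d, Col at 26 d and Col at 14 d. The labels call chlorella-1 a knockout of CHLORELLA, a gene for a long noncoding RNA targeted to the chloroplast, and Col the WT, and name no treatment. They do not say how many lines or alleles the mutant stands for, or whether the 3 libraries of a group came from separate plants, so p-values measure the spread between these samples, which may be technical. The CHLORELLA transcript itself was not analysed here, so the genotypes are given as labelled and were not checked by it.

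In a leaf that ages, growth and photosynthesis give way to senescence, an ordered programme in which chlorophyll is broken down, chloroplasts are dismantled and nitrogen, carbon and minerals are moved to growing organs. NAC and WRKY transcription factors switch on much of this programme, and GLK factors keep photosynthesis genes on while the leaf is green. A genotype by age interaction uses the 14 d leaves of each genotype as its own baseline, so it registers a gene only where the step between the ages differs.

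For each gene the age change is the log2 ratio of 26 d to 14 d, and the interaction is the age change in chlorella-1 minus the age change in Col. It is positive where the mutant moved further up, or less far down, than Col. Levels are in CPM, read counts scaled to a common library size after TMM adjustment for the makeup of each library, and are not set per gene length. The TMM factors were 1.06, 0.78 and 1.29 in replicates 1, 2 and 3 of chlorella-1 at 26 d. In the other groups they ran from 0.88 to 1.11. A value after ± is the SD over 3 libraries of a mean CPM, or the standard error of a log2 value. That standard error was worked back from the edgeR test, as the absolute log2 value over the square root of its F statistic. Where a group held few counts, the size of a log2 value is uncertain. Each adjusted p is from the quasi-likelihood test of edgeR, adjusted after Benjamini and Hochberg over all genes tested, and a gene was called where it was below 0.05.

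Of 20398 genes tested, 8606 (42.2%) were called in the interaction, 4323 (21.2%) of them higher and 4283 (21.0%) lower. The age change was called for 14520 genes (71.2%) in chlorella-1 and for 8047 (39.4%) in Col. Its spread was wider in the mutant, with an interquartile range over all tested genes of 2.60 on the log2 scale in chlorella-1 and 1.18 in Col. The interaction reached an absolute value of at least 1 for 6970 of the called genes (81.0%) and of at least 2 for 3088. Over all tested genes its median was -0.11, from medians of -0.11 in chlorella-1 and 0.01 in Col. With DESeq2 size factors the median interaction moved up by 0.14, to 0.02, and the split became 4722 higher and 3894 lower.

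Most of these genes moved the same way in both genotypes and further in the mutant, or moved past the threshold in the mutant alone. Among the called genes, 2985 rose or fell in both genotypes with the larger step in chlorella-1, against 79 with the smaller step there. Another 4448 had a called age change in chlorella-1 and none in Col, 606 had one in Col and none in chlorella-1, and 150 had neither. The last 338 (1.66% of the genes tested) had called age changes in opposite directions. Of the 8047 genes that changed with age in Col, 6440 (80.0%) also changed in the same direction in chlorella-1, and in 5393 of those 6440 the step was larger in the mutant. Across the 20398 genes, the age changes of the 2 genotypes, which share no library but share the scaling, had a Pearson r of 0.707 and a Spearman rho of 0.691.

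**Figure D1:**
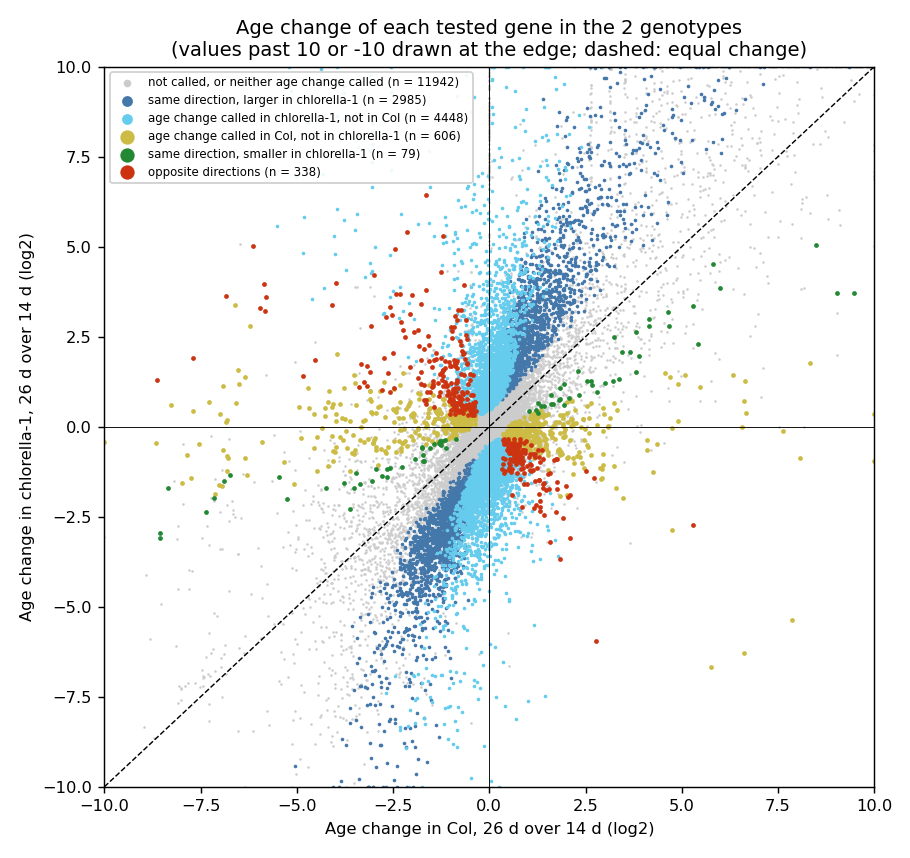
Age change (log2 of 26 d over 14 d) of each tested gene in chlorella-1, on the vertical axis, and in Col, on the horizontal axis, with the genes called in the interaction coloured by pattern and the dashed line marking equal change. The 2985 genes with a larger step in chlorella-1 lie between the dashed line and the vertical axis, and the 338 with opposite changes lie at the upper left and lower right.

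**Figure D2:**
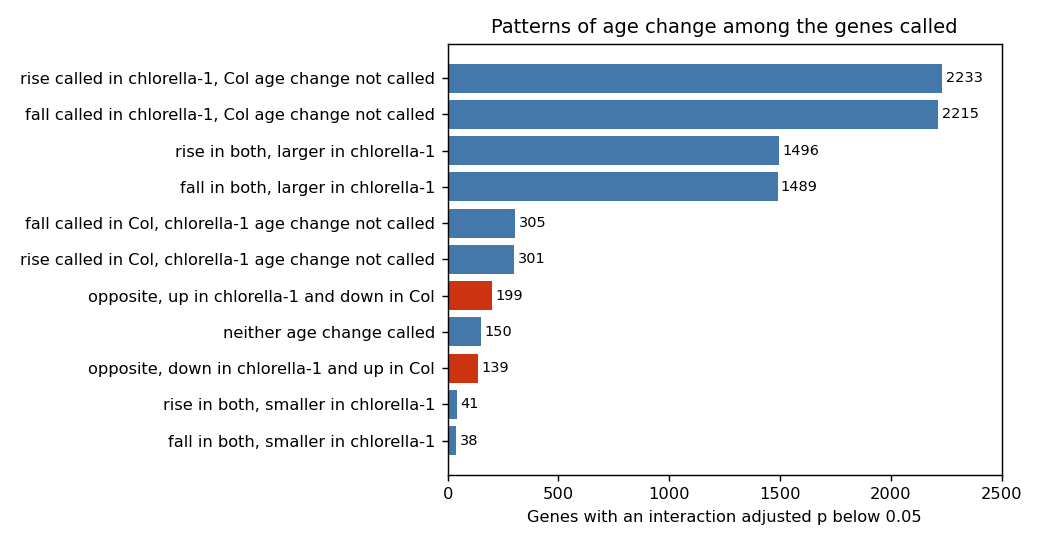
Number of genes called in the interaction in each of 11 patterns of age change, with the 2 opposite patterns in red. The bars run from 2233 genes that rose in chlorella-1 with no called change in Col down to 38 that fell less in chlorella-1 than in Col.

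Most of these genes also differed between the genotypes in old leaves. Of the 8606 genes, 8383 (97.4%) also differed between chlorella-1 and Col at 26 d, where 63.3% of all tested genes did, and 17 differed at 14 d, where 0.162% did. These genotype comparisons share libraries with the interaction, which equals the difference at 26 d minus that at 14 d. With few genes different at 14 d, the overlap at 26 d was largely fixed in advance and is no separate result. The plastid genome gave 49.2% to 72.7% of each library, and total counts ran from 45120547 to 70452171. Within a group, libraries correlated across genes with a Spearman rho of 0.929 to 0.971 for old and 0.989 to 0.992 for young chlorella-1 leaves, and of 0.969 to 0.982 for old and 0.991 to 0.992 for young Col leaves. The 6 markers of mesophyll, the green tissue of a leaf, were detected in every group, with summed levels of 455 to 1033 CPM in chlorella-1 at 26 d, 11013 to 12283 CPM in young chlorella-1 leaves, 3996 to 6489 CPM in Col at 26 d and 12559 to 14664 CPM in young Col leaves. In whole leaves, fewer cells of a type and less RNA per cell cannot be told apart, here and below.

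Genes with opposite age changes are described first, because in them the mutant change was no larger or smaller form of the Col change. Of the 338, 199 rose in chlorella-1 and fell in Col, with median age changes of 1.23 and -0.98, and 139 fell in chlorella-1 and rose in Col, with medians of -0.89 and 0.82. All 338 differed between the genotypes at 26 d, which a called interaction largely fixes, and 2 differed at 14 d. The count depends on single libraries: with 26 d mutant replicate 2 left out it was 545, and with replicate 3 left out 548. Leaving out Col replicate 3 at 26 d gave 209, and leaving out Col replicate 1, 2 or 3 at 14 d gave 197, 195 or 207. With 1 library left out, the 199 ran from 120 to 266 and the 139 from 66 to 285. Of the gene list members described further on, CSD1, BCAT1, TMM, SLAC1 and APL took the first pattern and CGA1, OPR3, PDF1.2a, ERS1, RVE4 and STP1 the second.

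Among the genes named by size, the largest opposite change of the first kind was that of SUS5 (AT5G37180, chromosome 5, 14718141 to 14723139), which encodes a sucrose synthase, an enzyme that splits sucrose. SUS5 stood at 59.95, 120.5 and 92.7 CPM in chlorella-1 at 26 d and 1.5, 1.14 and 0.516 CPM at 14 d. In Col, SUS5 had 0.749, 0.221 and 0.345 CPM at 26 d and 1.24, 1.45 and 1.48 CPM at 14 d. The 3 oldest mutant libraries lay far above all the others, and those of Col at 26 d lay below their own 14 d libraries. For genes named by size, ages without overlap where the age change was called were a condition of being named, here and below. Its age change was 6.43 ± 0.49 in chlorella-1 and -1.65 ± 0.45 in Col, an interaction of 8.08 ± 0.65 (adjusted p = 1.28e-05). TPPF (AT4G12430, chromosome 4, 7365257 to 7368730), for a trehalose-6-phosphate phosphatase, which makes trehalose from a sugar phosphate that signals sucrose supply, had 61.6, 79.7 and 17.9 CPM in chlorella-1 at 26 d and 1.18, 1.61 and 1.27 CPM at 14 d. In Col, TPPF had 0.596, 0.681 and 0.706 CPM at 26 d and 1.39, 1.75 and 1.45 CPM at 14 d. Replicate 3 of the oldest mutant leaves was the lowest of its group and still above every other library. The age changes of TPPF were 5.29 ± 0.47 and -1.21 ± 0.45 in chlorella-1 and Col, with an interaction of 6.5 ± 0.63 (adjusted p = 3.11e-05).

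MYB3R-4 (AT5G11510), a MYB factor that activates genes of cell division, had 6.57, 8.94 and 1.79 CPM in chlorella-1 at 26 d and 0.713, 1.11 and 0.663 CPM at 14 d. In Col, MYB3R-4 had 0.0612, 0.238 and 0.0492 CPM at 26 d and 0.716, 1.2 and 1.03 CPM at 14 d. The genotypes overlapped at 14 d, and at 26 d every chlorella-1 library lay above every Col library. MYB3R-4 stood at or below 0.238 CPM in Col at 26 d, so the size of its fall there is uncertain. Its interaction was 5.87 ± 0.88 (adjusted p = 0.000414), from age changes of 2.79 ± 0.57 in chlorella-1 and -3.07 ± 0.68 in Col. Markers of dividing cells did not follow it as a group: of 9 tested, 1 was called, the cyclin CYCA1;1 at 2.66 ± 0.44 (adjusted p = 0.000759), and no cell division gene of the list had a called opposite change. At an unadjusted edgeR p below 0.05, 5 of the 9 passed. Up to 4 were called under other settings (4 with DESeq2, 3 without Col replicate 3 or chlorella-1 replicate 2 at 26 d, 2 without chlorella-1 replicate 1 at 26 d or with limma voom). Their summed level was 1.15 to 1.6 CPM in chlorella-1 at 26 d, 7.12 to 8.7 CPM in young chlorella-1 leaves, 1.16 to 2.21 CPM in Col at 26 d and 11.7 to 14.4 CPM in young Col leaves, with PCNA1 at 0 in the oldest mutant leaves. PPa4 (AT3G53620), a soluble inorganic pyrophosphatase, had 89.5, 92.6 and 55.7 CPM in chlorella-1 at 26 d and 5.21, 5.46 and 4.9 CPM at 14 d. In Col, PPa4 had 2.43, 4.46 and 3.82 CPM at 26 d and 5.06, 6.83 and 5.12 CPM at 14 d. Its interaction was 4.6 ± 0.36 (adjusted p = 1.17e-05), from age changes of 3.93 ± 0.27 in chlorella-1 and -0.67 ± 0.25 in Col. MEE23 (AT2G34790), annotated as an FAD-binding berberine family protein, had 11.5, 9.95 and 4.83 CPM in chlorella-1 at 26 d and 1.43, 0.578 and 0.461 CPM at 14 d. In Col, MEE23 had 0.153, 0.306 and 0.41 CPM at 26 d and 0.771, 1.2 and 1.03 CPM at 14 d. The interaction of MEE23 was 5.2 ± 0.69 (adjusted p = 0.000197). It overlaps genes on the other strand, and since the strand setting of the counting is not given in the sources used here, its counts are uncertain.

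In the other direction the largest difference was that of PDF1.2a (AT5G44420, chromosome 5, 17906968 to 17907638), a defensin gene used as a marker of the jasmonate and ethylene defence pathway. PDF1.2a stood at 0.0302, 0.206 and 0.138 CPM in chlorella-1 at 26 d and 1.43, 0.273 and 0.645 CPM at 14 d. In Col, PDF1.2a had 83.6, 29.6 and 5.75 CPM at 26 d and 1.07, 1.04 and 0.906 CPM at 14 d. The 26 d libraries of Col, though spread widely, all lay above the young leaves of both genotypes, while those of chlorella-1 all lay below them. Its age changes were -2.72 ± 1.11 in chlorella-1 and 5.3 ± 0.88 in Col, an interaction of -8.02 ± 1.35 (adjusted p = 0.000858), which was not called with limma voom with or without a weight per group (adjusted p of 4.04e-10 to 0.228 over 22 alternatives). The size of this interaction rests on old mutant libraries at or below 0.206 CPM and is uncertain. PDF1.2a also has close relatives in the genome, among which reads may be shared. ATL15 (AT1G22500, chromosome 1, 7949476 to 7950900), a RING-type ubiquitin ligase gene that overlaps genes on the other strand, had 3.43, 0.343 and 5.43 CPM in chlorella-1 at 26 d and 12.1, 10.6 and 12.1 CPM at 14 d. In Col, ATL15 had 22.1, 23.1 and 26.1 CPM at 26 d and 3.91, 5.5 and 7.2 CPM at 14 d. Its interaction was -4.01 ± 0.83 (adjusted p = 0.00284), with age changes of -1.91 ± 0.59 in chlorella-1 and 2.1 ± 0.58 in Col.

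STP1 (AT1G11260), which encodes a carrier that takes up glucose and other monosaccharides, crossed over between the ages. STP1 had 34.1, 23.8 and 46.6 CPM in chlorella-1 at 26 d and 159, 84.8 and 108 CPM at 14 d. In Col, STP1 had 69.8, 106 and 113 CPM at 26 d and 30.6, 39.6 and 33.5 CPM at 14 d. Old mutant leaves were at the level of young Col leaves and young mutant leaves at that of old Col leaves. Its age changes were -1.75 ± 0.3 in chlorella-1 and 1.47 ± 0.29 in Col, an interaction of -3.23 ± 0.42 (adjusted p = 0.000165), and it overlaps a gene on the other strand. MYB51 (AT1G18570), an activator of indole glucosinolate synthesis, had 1.15, 1.4 and 2.03 CPM in chlorella-1 at 26 d and 5.44, 4.33 and 3.22 CPM at 14 d. In Col, MYB51 had 8.87, 8.09 and 8.85 CPM at 26 d and 5.57, 2.88 and 2.91 CPM at 14 d. The interaction of MYB51 was -2.69 ± 0.42 (adjusted p = 0.000568). SDR3 (AT2G47130), a short-chain dehydrogenase gene, had 0.438, 0.732 and 1.29 CPM in chlorella-1 at 26 d and 2.48, 2.3 and 1.33 CPM at 14 d. In Col, SDR3 had 7.08, 8.19 and 5.48 CPM at 26 d and 2.99, 1.85 and 2.4 CPM at 14 d. The interaction of SDR3 was -2.83 ± 0.52 (adjusted p = 0.00136). At 14 d STP1 alone of these 3 passed the test between the genotypes (adjusted p = 0.959 for MYB51, 0.955 for SDR3 and 0.0496 for STP1).

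**Figure D3:**
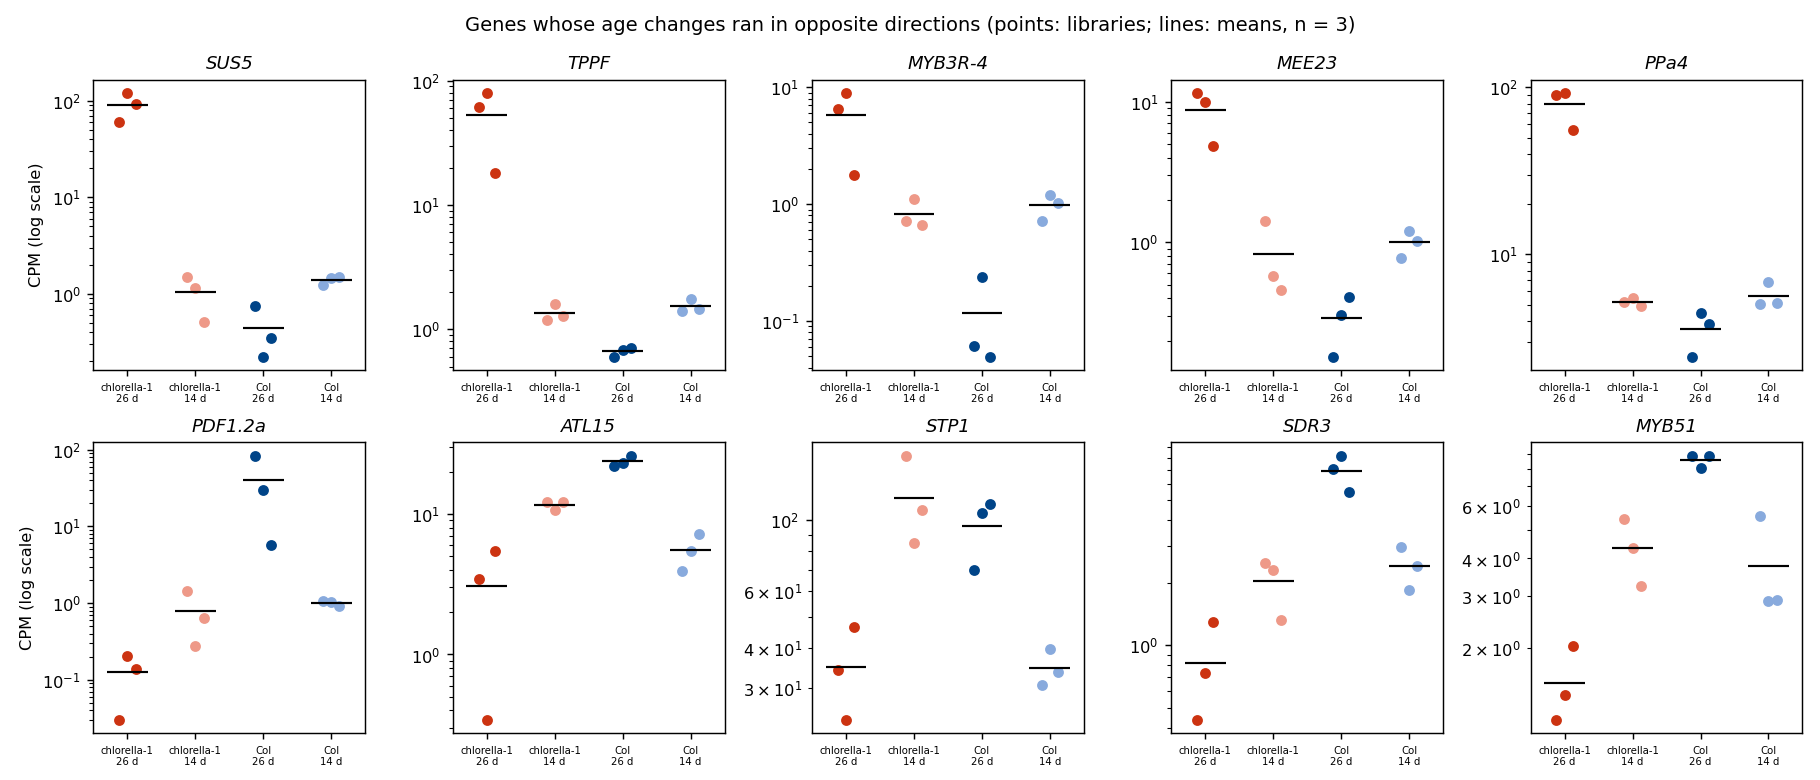
CPM (log axis) of the 10 named genes with opposite age changes, in chlorella-1 at 26 d and 14 d and in Col at 26 d and 14 d; points are libraries and lines are means of 3. In the upper row the oldest chlorella-1 leaves are the highest group, SUS5 reaching 120.5 CPM in 1 library, and in the lower row they are the lowest or level with young Col leaves.

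The 250 bases before the annotated start of 2 genes of each opposite pattern are shown so that the genes that moved together can be compared at their 5′ ends. They are those with the largest interaction among the named genes whose window holds no other annotated gene, read from the TAIR10.1 genome in RefSeq. Capitals mark matches on either strand to the G-box CACGTG, the evening element AAAATATCT, the W-box TTGACC or TTGACT, and the NAC core CACG, which is also part of the G-box.
SUS5 (chr5:14717891-14718140, plus strand): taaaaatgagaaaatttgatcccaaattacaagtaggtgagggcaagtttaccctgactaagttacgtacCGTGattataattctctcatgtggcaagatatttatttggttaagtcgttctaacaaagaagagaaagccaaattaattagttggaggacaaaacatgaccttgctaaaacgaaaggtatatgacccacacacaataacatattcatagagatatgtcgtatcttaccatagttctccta
TPPF (chr4:7368731-7368980, minus strand): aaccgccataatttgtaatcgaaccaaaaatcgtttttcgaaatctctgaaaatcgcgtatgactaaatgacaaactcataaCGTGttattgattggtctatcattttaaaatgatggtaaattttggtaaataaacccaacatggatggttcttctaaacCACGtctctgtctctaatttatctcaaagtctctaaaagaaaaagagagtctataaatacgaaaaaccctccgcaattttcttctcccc
PDF1.2a (chr5:17907639-17907888, minus strand): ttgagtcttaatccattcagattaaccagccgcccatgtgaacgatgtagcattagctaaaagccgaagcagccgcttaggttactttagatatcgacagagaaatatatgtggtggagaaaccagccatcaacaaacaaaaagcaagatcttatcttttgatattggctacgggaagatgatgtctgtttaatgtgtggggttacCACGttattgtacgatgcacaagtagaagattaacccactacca
ATL15 (chr1:7949226-7949475, plus strand): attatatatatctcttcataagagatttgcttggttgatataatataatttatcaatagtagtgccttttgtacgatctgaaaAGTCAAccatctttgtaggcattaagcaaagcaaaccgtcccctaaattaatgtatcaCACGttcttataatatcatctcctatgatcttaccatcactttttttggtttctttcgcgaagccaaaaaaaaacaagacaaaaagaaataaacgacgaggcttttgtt
SUS5 held 1 NAC core match, TPPF 2 and PDF1.2a 1, and ATL15 held 1 NAC core and 1 W-box match. Among 20204 tested nuclear genes with a full window, 46.5% held a NAC core, 28.2% a W-box, 7.24% a G-box and 2.51% an evening element. The NAC core stood at 49.7% of the windows of the 199 genes up in chlorella-1 and down in Col, and at 43.2% of the 139 in the reverse pattern. The evening element stood at 5.76% of those 139 windows, which is 8 genes, and at 2.01% of the 199. It stood at 5.32% of the 301 windows of genes with a called rise in Col alone. G-boxes were held by 9.71% of the genes that rose in both genotypes with a larger step in chlorella-1, by 10.2% of those that rose in chlorella-1 with no called change in Col, and by 7.55% and 6.0% of the matching genes that fell. Among genes with an age change called in Col alone the order was the reverse, 9.84% of the falls and 6.98% of the rises. These shares are descriptions of letters in windows, without a test.

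Genes that rose in both genotypes and further in chlorella-1 numbered 1496, and the 3 named by size encode a nuclease, an oxidase and a kinase. BFN1 (AT1G11190), a nuclease of senescence and cell death, had 1254 ± 212 CPM in chlorella-1 at 26 d and 0.608 ± 0.164 CPM at 14 d. In Col, BFN1 had 9.14 ± 4.25 CPM at 26 d and 1.06 ± 0.229 CPM at 14 d (SD, n = 3 each). Its age change was 11.01 ± 0.5 in the mutant and 3.1 ± 0.36 in Col, an interaction of 7.91 ± 0.53 (adjusted p = 6.5e-06). PAO1 (AT5G13700), a polyamine oxidase gene that overlaps another on the other strand, had 74.2 ± 46.7 CPM in chlorella-1 at 26 d and 0.132 ± 0.0543 CPM at 14 d. In Col, PAO1 had 0.583 ± 0.165 CPM at 26 d and 0.219 ± 0.0537 CPM at 14 d. The interaction of PAO1 was 7.71 ± 0.78 (adjusted p = 3.7e-05). NEK4 (AT3G63280), a NIMA-related protein kinase gene, had 184 ± 88.5 CPM in chlorella-1 at 26 d and 0.555 ± 0.194 CPM at 14 d. In Col, NEK4 had 2.2 ± 1.07 CPM at 26 d and 0.651 ± 0.0686 CPM at 14 d. The interaction of NEK4 was 6.6 ± 0.63 (adjusted p = 2.68e-05). All 3 were below 10 CPM in every library but those of chlorella-1 at 26 d and 1 of Col, BFN1 in replicate 1 at 26 d.

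Genes that fell in both and further in the mutant numbered 1489, and the 3 named by size encode a receptor-like kinase, a transcription factor and a peptide. CRK21 (AT4G23290), a cysteine-rich receptor-like kinase, had 0.293 ± 0.145 CPM in chlorella-1 at 26 d and 38.4 ± 3.4 CPM at 14 d. In Col, CRK21 had 10.5 ± 4.25 CPM at 26 d and 43.95 ± 2.54 CPM at 14 d. The interaction of CRK21 was -5.01 ± 0.47 (adjusted p = 2.48e-05). HBI1 (AT2G18300), a bHLH factor that promotes growth, had 1.19 ± 0.653 CPM in chlorella-1 at 26 d and 97.8 ± 4.45 CPM at 14 d. In Col, HBI1 had 31.4 ± 13.6 CPM at 26 d and 82.8 ± 2.83 CPM at 14 d. The interaction of HBI1 was -4.98 ± 0.54 (adjusted p = 5.78e-05). RGF9 (AT5G64770), which encodes a secreted growth factor peptide, had 0.481 ± 0.0761 CPM in chlorella-1 at 26 d and 41.9 ± 8.97 CPM at 14 d. In Col, RGF9 had 13.7 ± 8.06 CPM at 26 d and 38.4 ± 3.19 CPM at 14 d. The interaction of RGF9 was -4.95 ± 0.62 (adjusted p = 0.000143). In Col these genes kept a part of their 14 d level at 26 d, and in chlorella-1 each fell below 2 CPM in all 3 libraries.

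In 79 genes the mutant made the smaller step, a count of 46 to 50 without any 1 of the mutant libraries or Col replicate 2 at 14 d and of 119 without mutant replicate 2 at 26 d. ORS1 (AT3G29035), a NAC factor that promotes senescence, had 64.4, 66.4 and 52.5 CPM in chlorella-1 at 26 d and 6.71, 4.46 and 6.76 CPM at 14 d. In Col, ORS1 had 31.4, 26.3 and 41.9 CPM at 26 d and 0.564, 1.2 and 0.784 CPM at 14 d. It rose in both genotypes, by 3.35 ± 0.28 in chlorella-1 and 5.29 ± 0.32 in Col, and chlorella-1 was already higher than Col at 14 d (2.81 ± 0.29, adjusted p = 0.00295). The interaction of ORS1 was -1.93 ± 0.38 (adjusted p = 0.00217). CER1 (AT1G02205), which makes the alkanes of the leaf's wax, had 4.004, 4.37 and 0.638 CPM in chlorella-1 at 26 d and 8.15, 8.91 and 8.27 CPM at 14 d. In Col, CER1 had 0.0765, 0.0681 and 0.164 CPM at 26 d and 12.1, 15.01 and 10.04 CPM at 14 d. Its age change was -1.5 ± 0.49 in chlorella-1 and -6.89 ± 0.69 in Col, an interaction of 5.39 ± 0.83 (adjusted p = 0.000492), and replicate 3 of the oldest mutant leaves was the lowest of its group. The mannan synthase gene ATCSLA09 and HHP1, for a heptahelical membrane protein, also fell less in the mutant, with interactions of 2.54 ± 0.69 (adjusted p = 0.0124) and 2.17 ± 0.55 (adjusted p = 0.00888). EXL4 rose less, at -1.93 ± 0.59 (adjusted p = 0.0211), though the call was lost without Col replicate 2 or chlorella-1 replicate 1 at 14 d (adjusted p of 0.00363 to 0.0582 over 22 alternatives). The branched-chain aminotransferase gene BCAT2 stood at -2.15 ± 0.81 (adjusted p = 0.04999), overlaps another gene and was called under 8 of 22 alternatives; it was lost without any 1 of the libraries except replicate 2 of chlorella-1 at 14 d and replicate 3 at 26 d.

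Another 606 genes had an age change that was called in Col and missed the threshold in chlorella-1, 388 and 365 without Col replicate 1 and 2 at 14 d. SEN1 (AT4G35770), a gene induced by darkness and in senescence, had 33.4, 21.4 and 57.2 CPM in chlorella-1 at 26 d and 88.9, 22.9 and 42.96 CPM at 14 d. In Col, SEN1 had 74.7, 189 and 151 CPM at 26 d and 5.86, 4.98 and 9.36 CPM at 14 d. It rose by 4.36 ± 0.58 in Col, and in chlorella-1 the age change was -0.47 ± 0.51 and the ages overlapped, an interaction of -4.83 ± 0.75 (adjusted p = 0.000535). GRP3S (AT2G05380), for a glycine-rich protein, had 2.86 ± 2.38 CPM in chlorella-1 at 26 d and 6.52 ± 1.53 CPM at 14 d. In Col, GRP3S had 32.8 ± 15.7 CPM at 26 d and 4.32 ± 1.09 CPM at 14 d. The interaction of GRP3S was -4.11 ± 0.74 (adjusted p = 0.00126). AACT1 (AT5G61160), named as an anthocyanin acyltransferase gene, had 0.24 ± 0.285 CPM in chlorella-1 at 26 d and 0.25 ± 0.311 CPM at 14 d. In Col, AACT1 (AT5G61160) had 14.96 ± 16.3 CPM at 26 d and 0.159 ± 0.0737 CPM at 14 d. The interaction of AACT1 was -6.57 ± 1.64 (adjusted p = 0.00809), lost without chlorella-1 replicate 1 at 14 d and with limma voom (adjusted p of 0.000524 to 0.218 over 22 alternatives).

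FAD3 (AT2G29980), a desaturase of membrane lipids, had 14.8, 25.8 and 13.9 CPM in chlorella-1 at 26 d and 9.76, 12.7 and 12.4 CPM at 14 d. In Col, FAD3 had 0.26, 1.92 and 0.755 CPM at 26 d and 14.2, 14.6 and 13.8 CPM at 14 d. Its age change was 0.64 ± 0.45 in chlorella-1 and -3.87 ± 0.52 in Col, an interaction of 4.51 ± 0.68 (adjusted p = 0.000423). SUS6 (AT1G73370), a second sucrose synthase gene, had 5.92 ± 4.21 CPM in chlorella-1 at 26 d and 2.56 ± 0.51 CPM at 14 d. In Col, SUS6 had 0.295 ± 0.162 CPM at 26 d and 3.35 ± 0.687 CPM at 14 d. The interaction of SUS6 was 4.7 ± 0.9 (adjusted p = 0.00183). SKS6 (AT1G41830), of a family of multicopper oxidase-like proteins, had 6.14 ± 2.47 CPM in chlorella-1 at 26 d and 9.31 ± 2.06 CPM at 14 d. In Col, SKS6 had 1.36 ± 0.527 CPM at 26 d and 17.5 ± 1.98 CPM at 14 d. The interaction of SKS6 was 3.09 ± 0.46 (adjusted p = 0.000412). Both sucrose synthase genes named, SUS5 and SUS6, thus fell in Col, and neither had a called fall in chlorella-1.

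In the 4448 genes with a called age change in chlorella-1 alone, RNS3 (AT1G26820), a ribonuclease gene, had 61.5 ± 28.5 CPM in chlorella-1 at 26 d and 0.619 ± 0.16 CPM at 14 d. In Col, RNS3 had 0.983 ± 0.661 CPM at 26 d and 1.46 ± 0.411 CPM at 14 d. The interaction of RNS3 was 7.2 ± 0.73 (adjusted p = 3.85e-05). The glycosyltransferase gene UGT73C7 had 12.8 ± 9.91 CPM in chlorella-1 at 26 d and 0.12 ± 0.0584 CPM at 14 d. In Col, UGT73C7 had 0.254 ± 0.177 CPM at 26 d and 0.282 ± 0.129 CPM at 14 d. The interaction of UGT73C7 was 6.88 ± 1.03 (adjusted p = 0.000412). APS2 (AT1G05610), annotated as a small subunit of ADP-glucose pyrophosphorylase and overlapping another gene, had 7.34 ± 2.52 CPM in chlorella-1 at 26 d and 0.0896 ± 0.0883 CPM at 14 d. In Col, APS2 (AT1G05610) had 0.0821 ± 0.142 CPM at 26 d and 0.148 ± 0.0847 CPM at 14 d. The interaction of APS2 (AT1G05610) was 7.1 ± 1.44 (adjusted p = 0.00251). Its size is uncertain, since every group but old mutant leaves had a mean of 0.148 CPM or less. Among falls, the cell wall protein gene FLA9 had 0.0467 ± 0.0539 CPM in chlorella-1 at 26 d and 10.2 ± 0.973 CPM at 14 d. In Col, FLA9 had 2.62 ± 3.47 CPM at 26 d and 9.51 ± 1.09 CPM at 14 d. The interaction of FLA9 was -5.67 ± 1.36 (adjusted p = 0.00652), and was not called with limma voom with a weight per group; DESeq2 gave it no adjusted p. Its libraries of old mutant leaves held 9 counts in all. The aldolase gene FBA5, which overlaps a neighbour, had 3.77 ± 4.86 CPM in chlorella-1 at 26 d and 442 ± 41.7 CPM at 14 d. In Col, FBA5 had 149 ± 74.3 CPM at 26 d and 356 ± 27.4 CPM at 14 d. The interaction of FBA5 was -5.63 ± 1.28 (adjusted p = 0.00499); DESeq2 gave it no adjusted p. PCR1, a metal transport gene, had 2.66 ± 4.45 CPM in chlorella-1 at 26 d and 32.2 ± 9.16 CPM at 14 d. In Col, PCR1 had 162 ± 139.7 CPM at 26 d and 46.9 ± 15.2 CPM at 14 d. The interaction of PCR1 was -5.37 ± 1.74 (adjusted p = 0.0276); it was lost without Col replicate 1, 2 or 3 or chlorella-1 replicate 1 or 2 at 14 d, or Col replicate 2 at 26 d (adjusted p of 0.000139 to 0.0691 over 22 alternatives). All these age changes in Col missed the threshold, which does not show that Col leaves did not change.

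**Figure D4:**
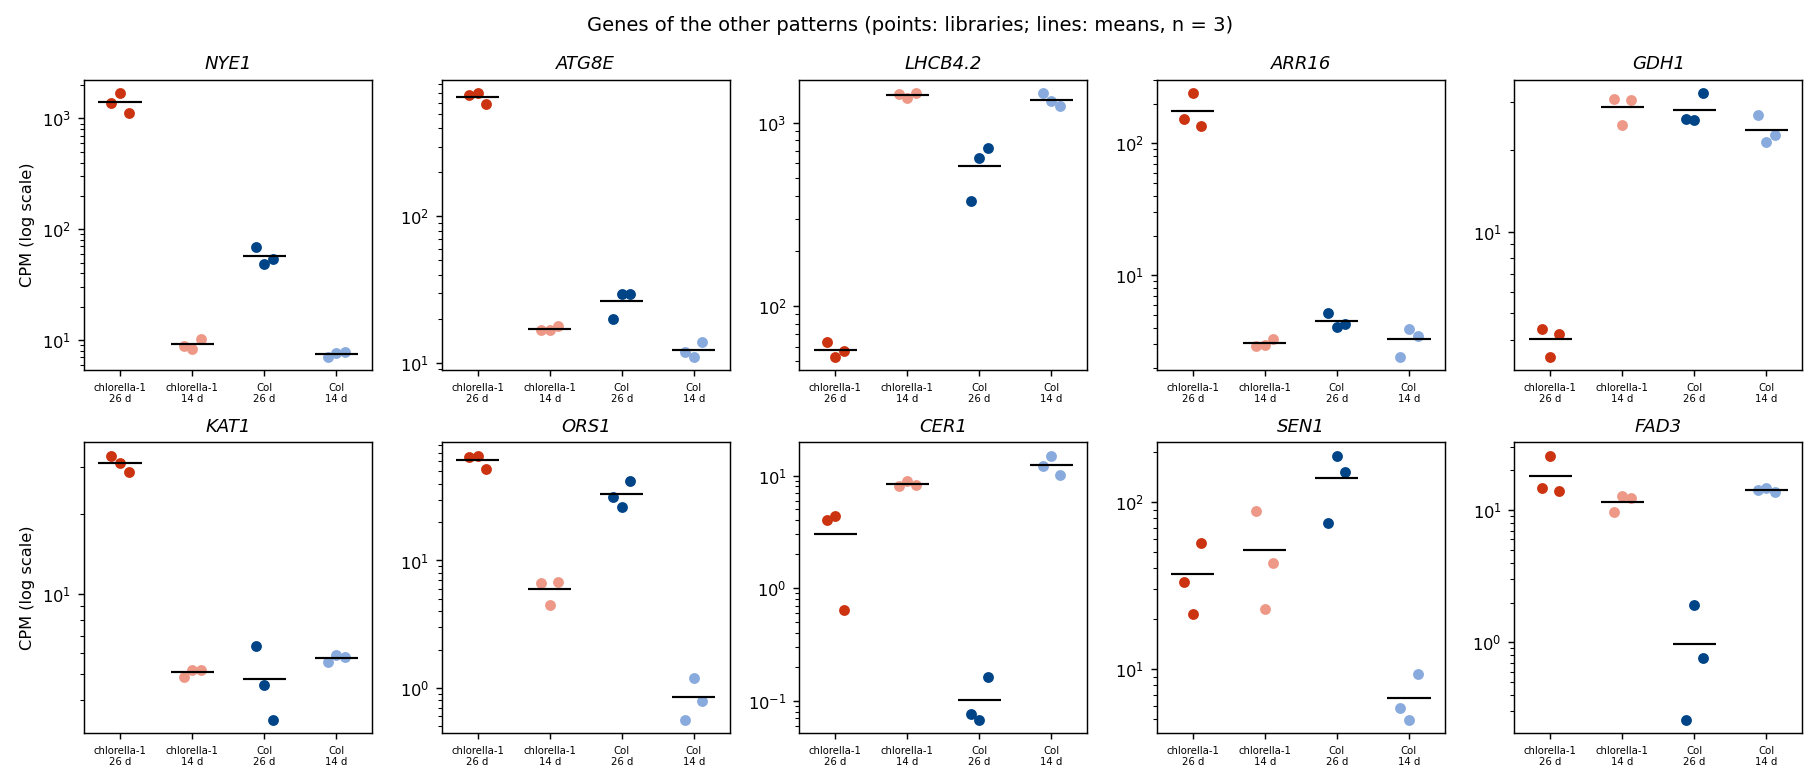
CPM (log axis) of 10 genes of the other patterns in chlorella-1 at 26 d and 14 d and in Col at 26 d and 14 d; points are libraries and lines are means of 3. NYE1, ATG8E and ARR16 rise and LHCB4.2 and GDH1 fall furthest in chlorella-1, whereas ORS1 and CER1 take the smaller step there and SEN1 and FAD3 change with age in Col.

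The gene lists below were described by the count of tested members called in the interaction and by their median, beside 21.2% higher, 21.0% lower and a median of -0.11 over all genes. Members with too few counts to test are left out of the counts, at most 3 of a pathway list. The ribosomal protein genes of the cytosol are the exception, with 8 of the 22 listed left out. Of 20 nuclear light-harvesting genes, 18 were lower and 0 higher (median -3.2, from age changes with medians of -4.67 in chlorella-1 and -1.58 in Col). All 28 nuclear photosystem and electron transport genes were lower (median -2.55, from age changes with medians of -3.67 in chlorella-1 and -1.26 in Col), as were 17 of 18 Calvin cycle genes (median -2.16, from age changes with medians of -3.8 in chlorella-1 and -1.58 in Col). The antenna gene LHCB4.2 (AT3G08940) had 63.2, 52.7 and 56.8 CPM in chlorella-1 at 26 d and 1437, 1361 and 1450.5 CPM at 14 d. In Col, LHCB4.2 had 374, 642 and 729 CPM at 26 d and 1453, 1307 and 1236 CPM at 14 d. The genotypes stood together at 14 d, and at 26 d all Col libraries lay above all mutant libraries. Its age changes were -4.62 ± 0.25 in chlorella-1 and -1.19 ± 0.22 in Col, an interaction of -3.43 ± 0.32 (adjusted p = 2.47e-05); it overlaps another gene. Among the others, LHCB5 stood at -3.2 ± 0.33 (adjusted p = 4.22e-05), the photosystem I gene PSAG at -3.19 ± 0.29 (adjusted p = 2.39e-05) and the plastocyanin gene PETE1 at -2.79 ± 0.29 (adjusted p = 4.82e-05). PRK, for phosphoribulokinase of the Calvin cycle, stood at -3.0 ± 0.49 (adjusted p = 0.000704); PSAG and PRK overlap other genes. RBCS1A and RBCS1B, for the small subunit of the carbon-fixing enzyme Rubisco, stood at -2.18 ± 0.35 (adjusted p = 0.000629) and -3.35 ± 0.55 (adjusted p = 0.000722). LHCB2.1 stood at -3.57 ± 0.39 (adjusted p = 6.21e-05). All 3 belong to families of near-identical copies, and their single values are uncertain.

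Of the plastid's own genes tested, 85 of 125 were lower and 0 higher, with a median interaction of -1.36. All 12 NDH genes, with ndhB of the same repeat counted at both its copies (median -2.65, from age changes with medians of -3.45 in chlorella-1 and -0.88 in Col), and all 6 ATP synthase genes were lower (median -2.32), with ndhA at -2.97 ± 0.26 (adjusted p = 1.69e-05) and atpH at -2.55 ± 0.23 (adjusted p = 2.16e-05). Ribosomal protein genes of the plastid were lower in 22 of 24 cases (median -1.4), which include both copies of rpl2, rpl23 and rps7 in the repeated part of the plastid genome. Photosystem, cytochrome and Rubisco genes were lower in 24 of 27 cases (median -1.5), among them psbE at -1.87 ± 0.21 (adjusted p = 7.83e-05) and rbcL at -2.76 ± 0.36 (adjusted p = 0.000167). Of the 13 polymerase and other genes, 7 were lower (median -0.91), among them rpoC1 at -2.24 ± 0.36 (adjusted p = 0.00065). The interaction of psbA, the gene of the photosystem II protein D1 and the source of 37.1% to 58.7% of a library's counts, was -0.42 ± 0.42 (adjusted p = 0.447). The plastid share of the counts without psbA was 7.88% ± 1.16 in chlorella-1 at 26 d and 45% ± 0.687 at 14 d, against 34.1% ± 1.31 in Col at 26 d and 45.7% ± 1.3 at 14 d (SD, n = 3 each). In the mitochondrion the direction was the reverse: 22 of 31 mitochondria-encoded protein genes were higher and 0 lower (median 0.77, from age changes with medians of 0.96 in chlorella-1 and 0.17 in Col). Of these, nad9, a subunit of respiratory complex I, stood at 1.14 ± 0.2 (adjusted p = 0.00124) and cox1, of cytochrome c oxidase, at 1.11 ± 0.22 (adjusted p = 0.00198).

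The nuclear genes that serve the plastid's transcription were mostly lower, 13 of 21 with 2 higher (median -0.89). The sigma factor genes SIG4 and SIG6, whose products direct the plastid polymerase to promoters, stood at -2.72 ± 0.32 (adjusted p = 9.77e-05) and -1.8 ± 0.33 (adjusted p = 0.00154), whereas PRIN2 was higher at 2.34 ± 0.38 (adjusted p = 0.000692); SIG4 and PRIN2 overlap other genes. Of 10 greening transcription factors, 6 were lower and 2 higher (median -1.47), a count of 8 that became 5 without any 1 of the 14 d libraries or Col replicate 3 at 26 d. GLK1 had 20.7, 8.67 and 36.1 CPM in chlorella-1 at 26 d and 91.7, 105 and 93.5 CPM at 14 d. In Col, GLK1 had 80.2, 61.99 and 97.8 CPM at 26 d and 90.4, 80.9 and 91.5 CPM at 14 d. All 3 old mutant libraries lay below the other 9, and the interaction was -2.02 ± 0.53 (adjusted p = 0.0107). GLK2 stood at -1.84 ± 0.63 (adjusted p = 0.0354), lost without any 1 of the 14 d libraries or Col replicates 2 or 3 at 26 d (adjusted p of 0.000157 to 0.0725 over 22 alternatives). CGA1, a GATA factor that promotes chloroplast growth, was one of the opposite genes, with age changes of -1.28 ± 0.39 in chlorella-1 and 1.58 ± 0.39 in Col and an interaction of -2.86 ± 0.55 (adjusted p = 0.00191). HY5, a factor that drives light responses, was higher at 3.21 ± 0.46 (adjusted p = 0.000299), and the phytochrome-interacting factor gene PIF1, which overlaps another gene, lower at -2.43 ± 0.56 (adjusted p = 0.00521).

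Chlorophyll genes parted by role. Of 23 synthesis genes, 15 were lower and 1 higher (median -1.01, from age changes with medians of -2.82 in chlorella-1 and -1.58 in Col), 16 in all, against 10 without Col or chlorella-1 replicate 3 at 14 d. Of 12 breakdown genes, 8 were higher and 1 lower (median 1.45, from age changes with medians of 2.34 in chlorella-1 and 1.23 in Col). NYE1, whose product removes magnesium from chlorophyll, had 1380.4, 1699 and 1109.7 CPM in chlorella-1 at 26 d and 8.74, 8.32 and 10.3 CPM at 14 d. In Col, NYE1 had 68.99, 49.02 and 53.4 CPM at 26 d and 7.02, 7.6 and 7.84 CPM at 14 d. It rose in both genotypes without overlap, by 7.26 ± 0.25 in chlorella-1 and 2.93 ± 0.21 in Col, an interaction of 4.33 ± 0.28 (adjusted p = 5.78e-06). NYC1, which reduces chlorophyll b, stood at 3.64 ± 0.29 (adjusted p = 1.28e-05) and MES16, of a later step, at 3.56 ± 0.41 (adjusted p = 7.93e-05). Of the synthesis genes, CHLM stood at -3.42 ± 0.29 (adjusted p = 1.6e-05), GUN4 at -3.59 ± 0.47 (adjusted p = 0.000177) and the reductase gene CHLP at -2.06 ± 0.3 (adjusted p = 0.000362); these 3 overlap other genes.

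Senescence regulators did not all take the larger step. Of 15 NAC genes, 10 were higher and 1, ORS1, was lower (median 1.48, from age changes with medians of 4.58 in chlorella-1 and 3.05 in Col). NAC087 had 151 ± 37.3 CPM in chlorella-1 at 26 d and 0.146 ± 0.0444 CPM at 14 d. In Col, NAC087 had 3.72 ± 0.475 CPM at 26 d and 0.189 ± 0.119 CPM at 14 d. The interaction of NAC087 was 5.73 ± 0.53 (adjusted p = 2.4e-05), NAC019 stood at 3.2 ± 0.48 (adjusted p = 0.000413) and ATAF1, which overlaps other genes, at 3.71 ± 0.35 (adjusted p = 2.73e-05). ORE1, the best known activator of senescence among them, had 198, 292 and 217 CPM in chlorella-1 at 26 d and 1.85, 0.835 and 1.47 CPM at 14 d. In Col, ORE1 had 24.6, 20.8 and 29.3 CPM at 26 d and 0.317, 0.0889 and 0.279 CPM at 14 d. It rose in both genotypes by 7.41 ± 0.43 and 6.76 ± 0.44 in chlorella-1 and Col, and the difference between these steps, 0.65 ± 0.53 (adjusted p = 0.347), did not pass under any of the 22 alternatives. The mutant was higher than Col at both ages, by 3.24 ± 0.35 at 26 d and 2.59 ± 0.41 at 14 d (adjusted p = 1.4e-05 and 0.0347). NAP, another NAC factor of senescence, stood at 0.97 ± 0.35 (adjusted p = 0.0439) and was lost without 8 of the 12 libraries in turn, namely Col replicates 1 and 3 and chlorella-1 replicates 2 and 3 at 14 d, and Col replicates 1, 2 and 3 and chlorella-1 replicate 3 at 26 d (adjusted p of 0.00806 to 0.122 over 22 alternatives).

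WRKY genes were split, with 4 of 14 higher and 4 lower (median -1.33), 8 in all, against 5 and 4 without Col replicate 1 at 14 d and Col replicate 2 at 26 d. WRKY6 stood at 3.33 ± 0.36 (adjusted p = 5.72e-05), WRKY57 at 2.94 ± 0.43 (adjusted p = 0.000375) and WRKY33, which overlaps another gene, at 1.57 ± 0.37 (adjusted p = 0.00612). Of 18 senescence markers and hydrolases, 8 were higher and 2 lower (median 2.0, from age changes with medians of 4.45 in chlorella-1 and 3.12 in Col), among them the ribonuclease gene RNS2 at 2.19 ± 0.25 (adjusted p = 7.93e-05). SAG12, for a cysteine protease made late in senescence, had 1799.7, 4299 and 3553 CPM in chlorella-1 at 26 d and 0, 0 and 0 CPM at 14 d. In Col, SAG12 had 197, 73.6 and 69.1 CPM at 26 d and 0, 0 and 0 CPM at 14 d. With 0 counts in all 6 young libraries, its age changes have no finite fold and no interaction is given; at 26 d it was higher in chlorella-1 by 4.83 ± 0.57 (adjusted p = 0.000199). The hydrolase gene alphaVPE, which overlaps another gene, had 13.7 ± 5.15 CPM in chlorella-1 at 26 d and 0.0368 ± 0.0638 CPM at 14 d. In Col, alphaVPE had 0.234 ± 0.0652 CPM at 26 d and 0.126 ± 0.0102 CPM at 14 d. Its young mutant libraries held 6 counts in all.

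Of 18 autophagy genes, 16 were higher and 0 lower (median 1.66, from age changes with medians of 2.54 in chlorella-1 and 1.02 in Col). ATG8E, for a protein that coats autophagic membranes, had 679, 699.9 and 585 CPM in chlorella-1 at 26 d and 16.7, 16.7 and 17.8 CPM at 14 d. In Col, ATG8E had 19.99, 29.5 and 29.3 CPM at 26 d and 11.8, 10.9 and 13.9 CPM at 14 d. The libraries of old mutant leaves stood far above all 9 others, and the interaction was 4.16 ± 0.26 (adjusted p = 4.68e-06). ATG7, an enzyme that activates ATG8 proteins, stood at 4.87 ± 0.3 (adjusted p = 4.68e-06) and ATG13A at 3.33 ± 0.25 (adjusted p = 9.8e-06). Of 17 peroxisomal fatty acid and glyoxylate genes, 12 were higher and 2 lower (median 1.35, from age changes with medians of 2.37 in chlorella-1 and 0.84 in Col), with the acyl-CoA oxidase genes ACX2 and ACX3 at 2.85 ± 0.34 (adjusted p = 0.000105) and 2.6 ± 0.33 (adjusted p = 0.000157) and the citrate synthase gene CSY2 at 2.13 ± 0.26 (adjusted p = 0.000108). Of 23 genes of amino acid catabolism and of responses to darkness, 12 were higher and 3 lower (median 1.33, from age changes with medians of 2.31 in chlorella-1 and 1.2 in Col), with DIN9 at 4.75 ± 0.49 (adjusted p = 4.38e-05), the alternative oxidase gene AOX1A at 2.82 ± 0.34 (adjusted p = 0.000116) and ETFQO, which passes electrons from amino acid breakdown to respiration and overlaps another gene, at 2.57 ± 0.28 (adjusted p = 5.64e-05).

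Nitrogen genes were divided. Of 19, 5 were higher and 6 lower (median -0.19). GDH1, a glutamate dehydrogenase gene that overlaps another gene, had 4.37, 3.45 and 4.21 CPM in chlorella-1 at 26 d and 30.7, 24.6 and 30.6 CPM at 14 d. In Col, GDH1 had 25.9, 25.7 and 32.4 CPM at 26 d and 26.9, 21.3 and 22.7 CPM at 14 d. Its libraries overlapped among 3 of the groups and were low in old mutant leaves, with an interaction of -3.08 ± 0.23 (adjusted p = 9.8e-06). GDH2, for another subunit of that enzyme, had 588 ± 59.2 CPM in chlorella-1 at 26 d and 7.08 ± 0.809 CPM at 14 d. In Col, GDH2 had 51.1 ± 17.1 CPM at 26 d and 6.93 ± 0.489 CPM at 14 d. The interaction of GDH2, opposite in sign to that of GDH1, was 3.49 ± 0.32 (adjusted p = 2.32e-05). NIA1, a nitrate reductase gene, stood at 2.38 ± 0.25 (adjusted p = 4.51e-05), with an age change of 2.54 ± 0.18 in chlorella-1 and 0.16 ± 0.17 in Col.

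Hormone genes gave mixed counts, with abscisic acid the most one-sided. Of 26 abscisic acid, drought and cold genes, 12 were higher and 2 lower (median 1.59, from age changes with medians of 3.02 in chlorella-1 and 1.18 in Col). AAO3 and ABA3, for the last step of abscisic acid synthesis and its cofactor, stood at 2.75 ± 0.36 (adjusted p = 0.000183) and 2.31 ± 0.37 (adjusted p = 0.000667). AAO3 overlaps another gene. Receptor genes differed: PYL9 stood at 1.75 ± 0.24 (adjusted p = 0.000242), PYL4 and PYL6 were the 2 lower genes, and PYL5 was not called. The phosphatase genes ABI1, ABI2, HAB1, HAI2 and HAI3 were among the 12 higher. Of 25 jasmonate genes, 7 were higher and 6 lower (median -0.43). The repressor genes JAZ1 and JAZ2 stood at 4.06 ± 0.68 (adjusted p = 0.000852) and 2.08 ± 0.32 (adjusted p = 0.000453), while OPR3, of jasmonate synthesis, was with PDF1.2a among the opposite genes, at -1.56 ± 0.32 (adjusted p = 0.00274). Of 18 ethylene genes, 5 were higher and 5 lower (median 0.32): ACO4, which makes ethylene, stood at 1.82 ± 0.34 (adjusted p = 0.00163) while the receptor gene ERS1 was opposite at -1.28 ± 0.26 (adjusted p = 0.00238). The response factor gene ERF1 had 6.61 ± 0.883 CPM in chlorella-1 at 26 d and 0.0404 ± 0.0452 CPM at 14 d. In Col, ERF1 had 0.627 ± 0.097 CPM at 26 d and 0.0839 ± 0.0549 CPM at 14 d, and was called with 7 counts in all over its young mutant libraries.

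Of 12 cytokinin genes, 2 were higher and 5 lower (median -1.59). ARR16, a response regulator, was one of the 2, with 154, 241 and 135 CPM in chlorella-1 at 26 d and 2.91, 2.95 and 3.3 CPM at 14 d. In Col, ARR16 had 5.23, 4.07 and 4.28 CPM at 26 d and 2.41, 3.94 and 3.48 CPM at 14 d. It rose by 5.85 ± 0.29 in chlorella-1 and had an age change of 0.47 ± 0.24 in Col, an interaction of 5.39 ± 0.35 (adjusted p = 5.78e-06). The receptor gene AHK2 stood at -2.01 ± 0.36 (adjusted p = 0.00118), but AHK3, another receptor gene, was the other of the 2 higher, and AHK4 was not called. The regulator gene ARR5 stood at -1.74 ± 0.43 (adjusted p = 0.00751), not called with limma voom with a weight per group. With that fit 3 of the 12 were called in all. Salicylic acid and defence genes gave few calls, 1 of 18 higher and 3 lower (median -0.36, but 0.24 without Col replicate 2 at 26 d): the salicylic acid receptor genes NPR1, which overlaps another gene, and NPR4 stood at -1.14 ± 0.25 (adjusted p = 0.00412) and -1.35 ± 0.31 (adjusted p = 0.0055), and NPR3 at 1.26 ± 0.36 (adjusted p = 0.0157). Of 8 heat shock genes, 5 were higher and 0 lower (median 3.22, from age changes with medians of 3.99 in chlorella-1 and 2.13 in Col), with HSP70-4 at 3.42 ± 0.67 (adjusted p = 0.00209) and HSP18.2 at 3.15 ± 0.74 (adjusted p = 0.00575). The factor gene HSFA2 had 3.11, 15.4 and 8.83 CPM in chlorella-1 at 26 d and 0.0535, 0 and 0 CPM at 14 d. In Col, HSFA2 had 0.535, 0.238 and 0.443 CPM at 26 d and 0.206, 0.148 and 0.0871 CPM at 14 d. It was called, but with 3 counts in all over the young mutant libraries the size of its interaction is not given.

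**Figure D5:**
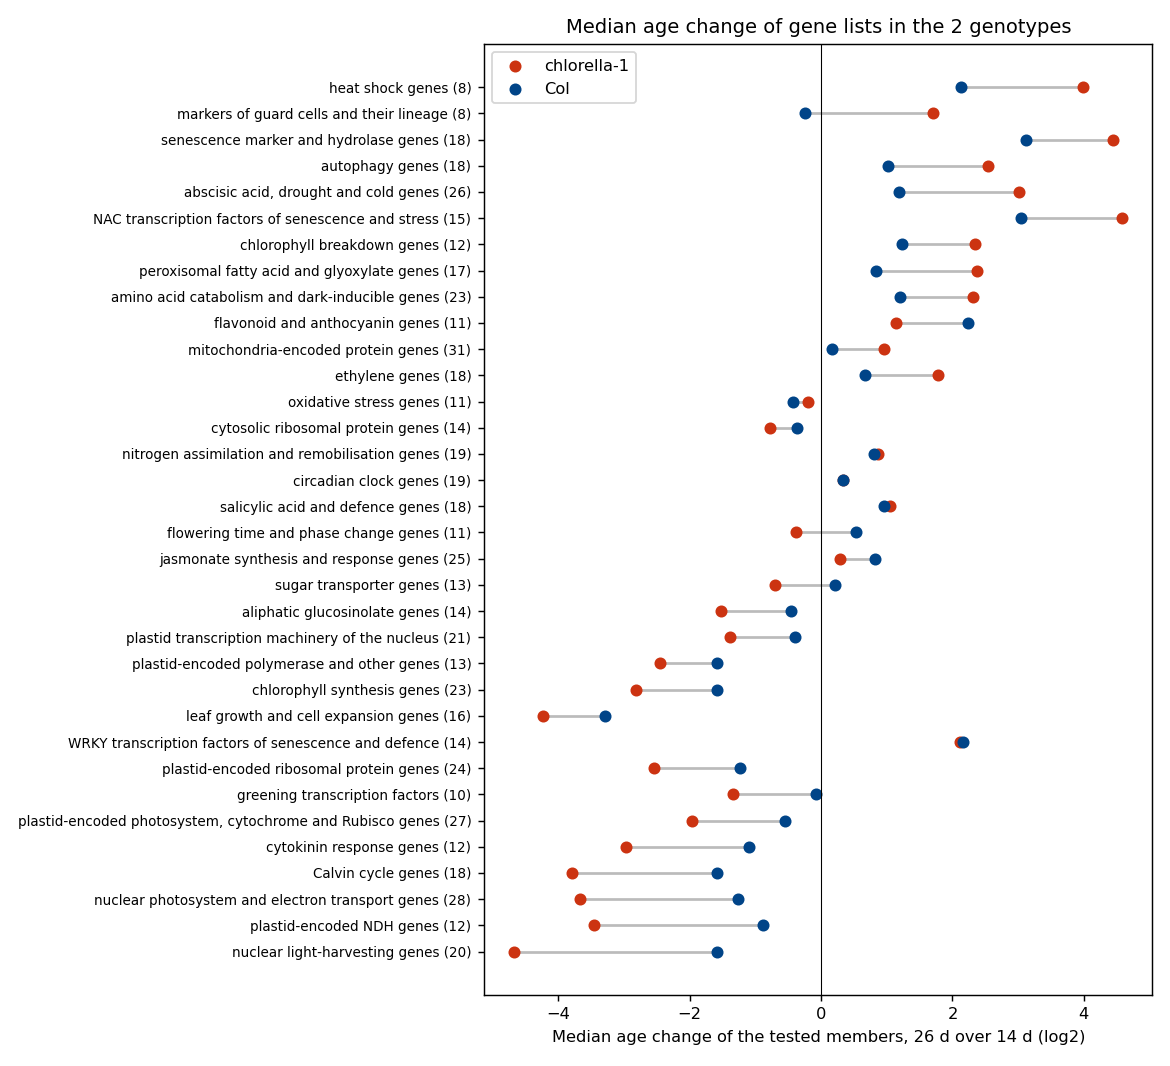
Median age change (log2 of 26 d over 14 d) of the tested members of each gene list in chlorella-1 (red) and in Col (blue), with the number of members tested in brackets and the lists ordered by their median interaction. At the bottom nuclear light-harvesting genes stand at -4.67 in chlorella-1 and -1.58 in Col, and near the top guard cell markers stand at 1.71 in chlorella-1 and -0.24 in Col.

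The remaining pathway lists had less one-sided or smaller counts. Clock genes had 3 of 19 higher and 6 lower (median -0.31), with RVE4, an opposite gene, at -1.77 ± 0.23 (adjusted p = 0.000194), its relative RVE6 at 1.35 ± 0.21 (adjusted p = 0.000504) and PRR7 at -1.12 ± 0.22 (adjusted p = 0.00205). Sugar transporter genes had 2 of 13 higher and 3 lower (median -0.54), 5 in all, against 9 without chlorella-1 replicate 3 at 26 d; besides STP1, STP14 was lower at -3.32 ± 0.57 (adjusted p = 0.000943) and SWEET11, a sucrose exporter, higher at 1.09 ± 0.24 (adjusted p = 0.00456). Oxidative stress genes had 3 of 11 higher and 2 lower (median 0.04, from -0.20 to 0.19 over 22 alternatives), with the catalase gene CAT1 at 3.04 ± 0.39 (adjusted p = 0.000149), the superoxide dismutase gene CSD1, an opposite gene, at 2.0 ± 0.29 (adjusted p = 0.000366) and the thylakoid peroxidase gene TAPX at -2.09 ± 0.37 (adjusted p = 0.00111). Cytosolic ribosomal protein genes, found by words in their annotated product, had 2 of 14 tested higher and 4 lower (median -0.16, 0.04 with DESeq2 size factors). That search listed 22 genes, 5 of them at 0 counts in every library, and they may not stand for the family. Flowering time and phase change genes had 2 of 11 lower and 0 higher (median -0.4; 4 called without Col replicate 2 at 26 d or with limma voom): SOC1, a promoter of flowering, stood at -1.69 ± 0.29 (adjusted p = 0.000952) and SPL4, which overlaps another gene, at -3.21 ± 0.76 (adjusted p = 0.00613). Leaf growth and cell expansion genes had 3 of 16 lower and 0 higher (median -1.17, but 0.43 without Col replicate 2 at 26 d; 1 called with limma voom), with the cell wall genes EXPA1 and XTH4 and the growth factor gene GRF1, which overlaps another gene, at -3.56 ± 1.13 (adjusted p = 0.025), -4.61 ± 1.48 (adjusted p = 0.027) and -1.76 ± 0.62 (adjusted p = 0.0386). That count of 3 became 0 without Col replicate 1, 2 or 3 at 14 d, 1 without chlorella-1 replicate 2 at 14 d or replicate 3 at 26 d, and 8 without chlorella-1 replicate 2 at 26 d. Flavonoid and anthocyanin genes had 1 of 11 higher, CHI at 1.0 ± 0.36 (adjusted p = 0.0453). None was called without Col replicate 1 or 2 or any 1 chlorella-1 library at 14 d or Col replicate 2 at 26 d, 3 without Col replicate 1 at 26 d and 2 without chlorella-1 replicate 2 or 3 at 26 d. Aliphatic glucosinolate genes had 0 of 14 called by edgeR, 0 at an unadjusted p below 0.05, 0 by DESeq2, which gave 1 of them no adjusted p, 0 by limma voom and 2 by limma voom with a weight per group or without chlorella-1 replicate 2 at 26 d, with UGT74C1, MYB28 and TGG1 at -1.19 ± 0.8 (adjusted p = 0.251), -1.36 ± 0.92 (adjusted p = 0.254) and -0.83 ± 0.81 (adjusted p = 0.433).

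Markers of some other cell types moved with the interaction. Of 12 guard cell and stomatal lineage markers, 8 were tested, 7 were higher and 0 lower (median 2.08, from age changes with medians of 1.71 in chlorella-1 and -0.24 in Col). Their summed level was 55.1 to 66.6 CPM in chlorella-1 at 26 d, 16.3 to 17.58 CPM in young chlorella-1 leaves, 12.8 to 16.9 CPM in Col at 26 d and 17.3 to 18.6 CPM in young Col leaves. KAT1 (AT5G46240), a potassium channel of guard cells, had 33.2, 31.02 and 28.9 CPM in chlorella-1 at 26 d and 4.89, 5.22 and 5.21 CPM at 14 d. In Col, KAT1 had 6.42, 4.56 and 3.38 CPM at 26 d and 5.59, 5.93 and 5.84 CPM at 14 d. All 3 libraries of old mutant leaves stood above the other 9, and the interaction was 2.87 ± 0.27 (adjusted p = 2.7e-05). The anion channel gene SLAC1, which overlaps another gene, was opposite, with age changes of 1.85 ± 0.24 in chlorella-1 and -1.43 ± 0.25 in Col and an interaction of 3.28 ± 0.34 (adjusted p = 4.63e-05). The factor FAMA, which sets guard cell identity, stood at 1.52 ± 0.23 (adjusted p = 0.000502). Of the lineage's early genes, SPCH was at 0 counts in all 4 groups, and MUTE and EPF2 in all but old mutant leaves. The guard cell count of 7 was the same under all 22 alternatives; the part of cell makeup in the results was not tested.

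Vascular markers had 2 of 10 tested higher and 0 lower (median 0.44), with summed levels of 290.2 to 426 CPM in chlorella-1 at 26 d, 344 to 393 CPM in young chlorella-1 leaves, 179 to 222 CPM in Col at 26 d and 301 to 304 CPM in young Col leaves. One was APL, a factor of phloem identity, which was opposite with an interaction of 2.63 ± 0.22 (adjusted p = 1.48e-05), and the other SWEET11. Epidermis and trichome markers had 3 of 5 tested lower and 1, CER1, higher (median -1.35), with the layer's regulators ATML1 and PDF2 at -1.53 ± 0.29 (adjusted p = 0.00166) and -1.35 ± 0.26 (adjusted p = 0.00173). Their summed level was 9.79 to 21.8 CPM in chlorella-1 at 26 d, 130.4 to 136 CPM in young chlorella-1 leaves, 28.4 to 45.1 CPM in Col at 26 d and 133 to 157 CPM in young Col leaves, with GL1 at 0 in all 4 groups. Of 7 pollen markers, 0 were called by edgeR, 1 at an unadjusted p below 0.05 and 1 without chlorella-1 replicate 1 at 26 d, against 3 each by DESeq2 and limma voom and 6 by limma voom with a weight per group. Their summed level was 42.3 to 95.5 CPM in chlorella-1 at 26 d, 13.4 to 14.1 CPM in young chlorella-1 leaves, 18.5 to 18.9 CPM in Col at 26 d and 12.9 to 13.5 CPM in young Col leaves. One of them, the tubulin gene TUA1, made up nearly all of that sum outside the old mutant leaves. TUA1 had 21.9, 26.1 and 29.4 CPM in chlorella-1 at 26 d and 14.02, 13.4 and 13.4 CPM at 14 d. In Col, TUA1 had 18.8, 18.5 and 18.5 CPM at 26 d and 13.5, 12.9 and 13.2 CPM at 14 d. It overlaps genes on the other strand. At 14 d, 4 of the 7 were at 0 in chlorella-1 and 6 of the 7 in Col. A marker at 0 at 14 d has no finite age change. The edgeR count of 0 called therefore does not show that pollen markers changed alike in the genotypes. Of 5 floral organ markers tested, 0 were called by edgeR, DESeq2 or limma voom and 0 at an unadjusted p below 0.05, with 1 called without chlorella-1 replicate 2 at 14 d. Their summed level was 2.33 to 3.39 CPM in chlorella-1 at 26 d, 0.392 to 0.61 CPM in young chlorella-1 leaves, 1.16 to 1.43 CPM in Col at 26 d and 0.279 to 0.652 CPM in young Col leaves, and AP1 was at 0 in all 4 groups. Root markers were mostly at 0, 4 of 6 in chlorella-1 at 26 d and 5 of 6 in each other group, with summed levels of 0.457 to 1.3 CPM in chlorella-1 at 26 d, 1.82 to 2.26 CPM in young chlorella-1 leaves, 1.4 to 1.76 CPM in Col at 26 d and 2.19 to 2.42 CPM in young Col leaves. The 1 tested was called only without chlorella-1 replicate 1 at 26 d.

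By gene type, 8308 of 19255 protein-coding genes (43.1%) were called, and 79 of 338 annotated lncRNA genes (23.4%), 43 of them higher and 36 lower. Over all genes tested 42.2% were called, 21.2% higher and 21.0% lower. All 12 called of 28 small nuclear RNA genes (42.9%) were higher, and all 12 called of 42 transfer RNA genes (28.6%) were lower.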

How the data were processed

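Total RNA from leaves was sequenced in 12 libraries, 3 per genotype and age, after depletion of ribosomal RNA with a strand-aware kit, per the labels' protocols. The authors deposited raw read counts per gene for the TAIR10.1 annotation, per the file headers, and the submitters' processing notes name STAR, HTSeq, HISAT2, StringTie and DESeq2 without their roles. The strand setting of the counting is not given in the sources used here. The 12 FPKM columns were not used. Rows without a gene name (50 of 38338, 0.0771% to 0.216% of counts) were left out. Of 38288 genes, 17890 failed the low-count filter of edgeR and 9983 had 0 counts throughout.

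The remaining genes entered 1 quasi-likelihood model of the 4 groups with TMM scaling (edgeR 4.0.16, R 4.3.3), tested on simulated data with known changes. The simulated data held changes in few genes, evenly up and down, and no age change shared by the genotypes. They therefore do not test the scaling or the false calls where many genes change. The alternatives used limma 3.58.1, DESeq2 1.42.0, other scalings and filters, a replicate block and leaving out each library. Total counts were 45120547 to 70452171 per library, and the tests rest on the spread between the 3 libraries of a group. From each pattern the genes named were those with the largest interaction, 5 for each opposite pattern and 3 for the others, among named protein-coding genes with a mean of at least 5 CPM in 1 group, a mean count of at least 3 in every group and ages that did not overlap where called. From each list up to 3 genes with the smallest interaction p were named, and 8 senescence and chloroplast genes were always given. One gene that this rule takes is not reported here. OPR3, ERS1, BCAT1 and TMM were named after their values were seen. Members and lists were chosen with earlier results of these data known.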

Additional observations from a re-analysis of the deposited data

Results flagged for a closer look

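The age change differed between chlorella-1 and Col, by the test of the difference itself, for 8606 genes. Among the named genes with opposite age changes, the age change in chlorella-1 minus that in Col was 8.08 for SUS5, 6.5 for TPPF, 5.87 for MYB3R-4, 5.2 for MEE23 and 4.6 for PPa4 on the log2 scale. It was -8.02 for PDF1.2a, -4.01 for ATL15, -3.23 for STP1, -2.83 for SDR3 and -2.69 for MYB51. The sizes for MYB3R-4 and PDF1.2a rest on a group with few counts and are uncertain. With 3 libraries in each group, single libraries were not tested for standing apart.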

How the results depend on the processing

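Of the 8606 genes, 5752 (66.8%) were called in the same direction under each of the 22 alternative fits that gave them an adjusted p, and 6207 (72.1%) under the 12 that left out 1 library. The number of genes called ran from 6930 to 9842, the highest with DESeq2, and from 6930 to 9516 with 1 library left out. With an absolute log2 of at least 1 it was 6970. The 338 genes with opposite age changes became 195 to 548 with 1 library left out. The parts of this count ran from 120 to 266 for the 199 up in chlorella-1 and from 66 to 285 for the 139 down; the first was 120 to 130 without Col replicate 1 or 2 at 14 d or replicate 3 at 26 d, the second 66 to 89 without these, Col replicate 3 or chlorella-1 replicate 1 or 3 at 14 d, and 285 or 282 without chlorella-1 replicate 2 or 3 at 26 d. The 606 age changes in Col alone ran from 365 to 802, the 301 rises among them from 182 to 444 and the 305 falls from 183 to 390, with the rises at 182 to 192 without any 1 of the Col libraries at 14 d and the falls at 183 and 196 without Col replicate 2 at 14 d and replicate 3 at 26 d. The 79 smaller steps ran from 46 to 119, with 24 to 68 for the 41 rises and 22 to 65 for the 38 falls. Leaving out a young mutant library or Col replicate 2 at 14 d took both to between 22 and 27; the rises were also 26 without Col replicate 1 at 14 d and 68 without chlorella-1 replicate 2 at 26 d, and the falls 25 without Col replicate 3 at 14 d and 65 without Col replicate 2 at 26 d. The 1489 larger falls ran from 992, without Col replicate 2 at 14 d, to 2183, and the 1496 larger rises from 1053 to 1806. In the smaller patterns, the 139 genes down in chlorella-1 and up in Col became 238, the 38 smaller falls 15, the 2215 falls in chlorella-1 alone 1398 and the 301 rises in Col alone 469 with limma voom with a weight per group. The 41 smaller rises became 62 with DESeq2, the 38 smaller falls 24 with no filter and 25 at an absolute log2 of at least 1, where the 150 genes with neither age change called became 84. The median of the dividing cell markers, 0.82, was -0.22 without chlorella-1 replicate 3 at 26 d. That of the floral organ markers, 0.44, ran from -0.32 to 1.02 over the alternatives. The cause of these shifts was not tested. Of 3471 values of named genes under alternatives, 3363 kept direction and side of the threshold, 82 lost the call, 25 gained it and 1 turned: TGG1, not called, ran from -1.28 to 0.33 with 1 library left out, turning without Col replicate 2 at 26 d. Same-numbered replicates did not deviate together (r of -0.131 to 0.146 over 18 pairs across genes), and a fit with the replicate block called 8117 genes.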
